A study of Mus musculus with 24 samples.

Results

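C3Bir macrophages were compared with BC-R3 macrophages after treatment with flagellin, to show how gene expression differs with the genetic background when both strains carry the C3Bir form of Cdcs1, a colitis susceptibility locus on mouse chromosome 3. The comparison took 6 of the 24 arrays of the series, 3 per strain, chosen by their labels and by no measured value. C3Bir is the strain C3H/HeJBir-Il10tm1Cgn, on which the series reports susceptibility to colitis. BC-R3 is the strain B6.Cg-Il10tm1Cgn Cdcs1, of B6 background with the Cdcs1 region taken from C3Bir. A pair of further strains served as a second view of the same background difference, with the B6 form of Cdcs1: CB-R1 (C3Bir.Cg-Il10tm1Cgn Cdcs1), a C3Bir background with a long B6 stretch of chromosome 3, and B6 (C57BL/6J-Il10tm1Cgn). All mice in these groups were male and lacked a working gene for Il10, the cytokine that restrains macrophage activation, so no group shows an Il10-sufficient macrophage. Marrow cells of 3 mice per genotype were cultured for 6 days, 1 µg/mL of Cbir flagellin was added to 3 wells for the last 4 h, and the 3 wells were pooled for 1 RNA sample. Array numbers 1, 2 and 3 come from the labels, which tie none of them to a mouse, so the p-values below measure the spread between arrays.

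Flagellin is the protein of the bacterial flagellum; macrophages can detect it at the surface through Tlr5 and in the cytosol through Naip5 and the inflammasome, which needs the adaptor Pycard. Macrophages grown from bone marrow also clear debris through scavenger receptors, make the complement protein C1q, present peptides on MHC class II molecules and answer cytokines and interferons with large sets of induced genes. Inbred strains such as C3H and B6 differ at many genes at once, and C3H/HeJ, from which C3H/HeJBir is derived, is known for a Tlr4 mutation that blunts the response to lipopolysaccharide.

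Values are log2 signals of probe sets on Affymetrix arrays, with 1 probe set standing for each of 18193 genes, and a difference of 1 on this scale is a doubling. The 6 arrays had median values of 6.59 to 6.61 and lower quartiles of 5.34 to 5.38, and arrays of a group correlated at 0.993 to 0.998 across probe sets. The number of arrays limits the precision. The values carry no detection call, so no fold is given where a group mean is at or below 5.38. Macrophage lineage markers were high: Lyz2, lysozyme, had 14.35, 14.20 and 14.27 on C3Bir arrays 1, 2 and 3, against 14.26, 14.27 and 14.27 on BC-R3 arrays 1, 2 and 3. Csf1r averaged 13.77 in C3Bir and 13.89 in BC-R3, and Adgre1 averaged 12.51 in C3Bir and 12.91 in BC-R3. The neutrophil marker S100a8 was high as well, at 13.37 in C3Bir and 13.33 in BC-R3, and the part of neutrophils was not tested. Of 21 macrophage lineage markers 0 were called, with 1 higher and 1 lower at an unadjusted p under 0.05, and the mean over them was 12.48 to 12.78 in C3Bir and 12.65 to 12.66 in BC-R3. C3Bir array 1 stood somewhat apart. Its mean over 29 interferon-stimulated genes was 10.92, against 10.01 on each of the other 2 C3Bir arrays. Its mean over 12 neutrophil markers was 11.10, against 10.49 and 10.26. Several of the results that rest on it are also given without it. Groups are named by their labels. In C3Bir several cytokines averaged less on the flagellin arrays than on the unstimulated arrays: Tnf 9.20 against 10.42, Il1b 9.08 against 10.79, Il12b 5.88 against 8.21 and Ccl5 9.13 against 10.89. The unstimulated C3Bir array 1 correlated at 0.990 with the other 2, which correlated at 0.998 with each other. The difference between the treatments was not tested here.

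Between the backgrounds 1123 genes differed, of which 633 were higher and 490 lower in C3Bir than in BC-R3 (limma, Benjamini-Hochberg adjusted p under 0.05). That is 6.17% of the genes tested, with 3.48% higher and 2.69% lower. Most of the differences were small, with a median size of 0.50 on the log2 scale over the called genes, and 93 were at least 2-fold higher and 76 at least 2-fold lower. A group of 22 genes was at least 4-fold higher and 19 were at least 4-fold lower. In 1118 of the called genes the 3 arrays of one strain lay above the 3 of the other, which was also so in 24.9% of all genes. Without C3Bir array 1 the count was 1077, with 693 higher and 384 lower. Without C3Bir array 2 or 3 it was 725 or 735, without BC-R3 array 1 or 3 it was 748 or 742, and 550 genes were called whichever of the 6 arrays was left out.

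**Figure D1:**
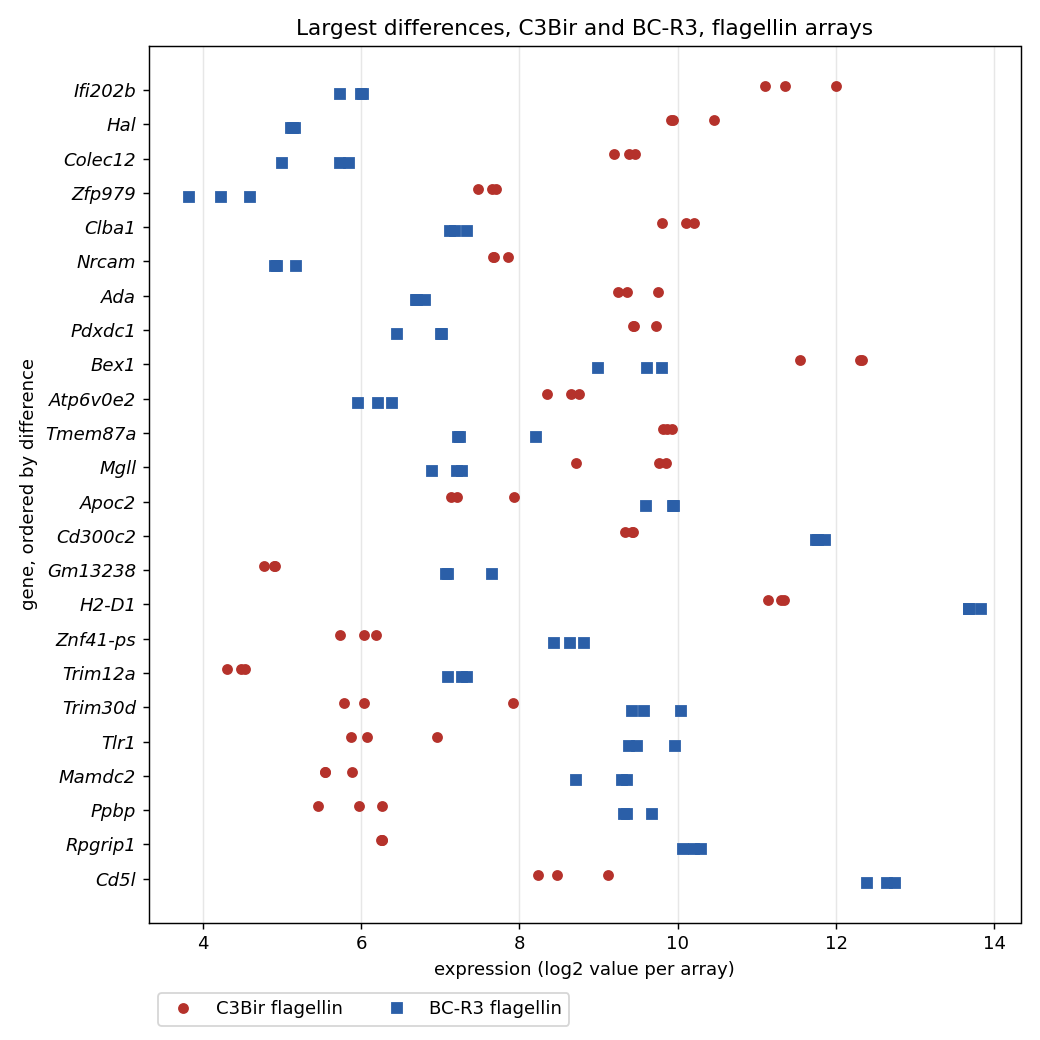
Log2 value on each array (x axis) for the 12 genes with the largest rise and the 12 with the largest fall in C3Bir against BC-R3 (rows), among genes called whichever array was left out. Circles are the 3 C3Bir flagellin arrays and squares the 3 BC-R3 flagellin arrays, and in every row the circles and squares are apart, as the choice of these genes required.

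The gene with the largest rise was Ifi202b, an interferon-inducible DNA-binding protein known to be little expressed in C57BL/6 mice. It had 12, 11.10 and 11.35 on C3Bir arrays 1, 2 and 3, against 6.03, 5.73 and 6.00 on BC-R3 arrays 1, 2 and 3. All BC-R3 arrays stood below the array median and far from every C3Bir array, a difference of 5.57 ± 0.23 (log2 ± SE) or 47.4-fold (adjusted p = 1.14e-12). Hal, which breaks down histidine, had 10.46, 9.91 and 9.94 in C3Bir, against 5.17, 5.12 and 5.14 in BC-R3. BC-R3 was below the lower quartile throughout, so the rise of 4.96 ± 0.31 is a difference in signal only (adjusted p = 1.09e-09). Colec12, a scavenger receptor of the collectin family, had 9.46, 9.19 and 9.39 in C3Bir, against 5.85, 5.74 and 5.00 in BC-R3, and was 14.1-fold higher. Ada, adenosine deaminase, had 9.75, 9.24 and 9.36 in C3Bir, against 6.69, 6.81 and 6.71 in BC-R3, and was 6.56-fold higher. Mgll, which releases fatty acids from monoglycerides, had 8.71 on C3Bir array 1 and 9.85 and 9.76 on the other 2 C3Bir arrays, all above the 7.28, 7.21 and 6.90 of BC-R3, and was 4.95-fold higher. The other rises among the 12 were those of Zfp979, a zinc finger gene (3.40), Clba1 (2.83), Nrcam, a cell adhesion molecule (2.72), Pdxdc1 (2.71), Bex1 (2.59), Atp6v0e2, a subunit of the proton pump that acidifies lysosomes (2.40), and Tmem87a (2.31), each a log2 difference.

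The largest fall was that of Cd5l, a secreted protein that macrophages make in response to the nuclear receptor LXR. It had 9.12, 8.48 and 8.23 on C3Bir arrays 1, 2 and 3, against 12.39, 12.75 and 12.64 on BC-R3 arrays 1, 2 and 3. No C3Bir array came near a BC-R3 array, and the gene was 15.9-fold lower (-3.99 ± 0.24, adjusted p = 6.38e-10). Tlr1, which pairs with Tlr2 to detect bacterial lipopeptides, had 6.96, 6.07 and 5.87 in C3Bir, against 9.49, 9.39 and 9.96 in BC-R3. It was 9.92-fold lower, with the highest of the C3Bir values on array 1 (adjusted p = 0.00017). Ppbp, a chemokine stored in platelets, had 6.26, 5.97 and 5.46 in C3Bir, against 9.36, 9.32 and 9.68 in BC-R3, and was 11.8-fold lower. Apoc2, the protein cofactor of lipoprotein lipase, had 7.93, 7.21 and 7.13 in C3Bir, against 9.95, 9.94 and 9.60 in BC-R3, and was 5.30-fold lower. Rpgrip1, best known from the photoreceptor cilium, had 6.26, 6.26 and 6.25 in C3Bir, against 10.29, 10.21 and 10.07 in BC-R3, and was 15.2-fold lower. Its other 3 probe sets lay below the lower quartile in both strains and did not differ at an unadjusted p under 0.05. The remaining falls were those of Mamdc2 (-3.47), Trim30d (-3.09), Trim12a (-2.80), Znf41-ps, a pseudogene (-2.64), H2-D1 (-2.47 by its representing probe set; its probe sets disagree, as given below), Gm13238 (-2.41) and Cd300c2, a receptor of myeloid cells (-2.40), each a log2 difference. Of these 24 genes the highest adjusted p was 0.00101, and with any 1 array left out it was 0.0109.

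Array probes match 1 reference sequence, so a strain's variant under a probe can change the signal; its part in these differences was not tested, and the other probe sets of each gene are given in its place. Of the 24 genes 16 had no other probe set, 5 had another that differed the same way at an unadjusted p under 0.05, and 2 had one that differed the opposite way. Pdxdc1 was one of these, with 3 other probe sets that were lower in C3Bir, by -0.57, -0.58 and -2.14. H2-D1, a classical MHC class I gene whose sequence is known to differ between the haplotypes of C3H and B6 mice, was the other. One probe set of H2-D1 averaged 12.98 in C3Bir and 5.88 in BC-R3, and another averaged 6.99 in C3Bir and 13.41 in BC-R3. Of its 8 other probe sets 3 were lower and 4 higher in C3Bir at that threshold, so no direction is given for the gene. Over all 1123 called genes 637 had another probe set, which differed the same way in 405 and the opposite way in 42, and 486 had none.

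Most of the called differences had the same sign on arrays that the comparison did not use. Between CB-R1 and B6, which share the B6 form of Cdcs1, 1589 genes were called (8.73%), 934 higher (5.13%) and 655 lower (3.6%) in CB-R1. With quantile normalization that split was 806 higher and 881 lower, and with median centring 724 higher and 836 lower. Some lists differed between CB-R1 and B6 more than between C3Bir and BC-R3. Calls for CB-R1 over B6 included 4 of 29 interferon-stimulated genes, all higher, and 3 of 19 NF-kB genes, all lower. For C3Bir over BC-R3 these lists held 0 calls. The interferon list median was 0.80 for the first pair and 0.05 for the second, and the NF-kB median -0.63 and -0.31. Array means over the interferon list overlapped, at 10.50 to 11.10 in CB-R1 and 9.21 to 10.91 in B6. Neutrophil markers were called higher in CB-R1 in 10 of 12, with a median of 1.11, against 0 of 12 and 0.13 in C3Bir over BC-R3. The mean over these 12 was 11.26 to 11.44 in CB-R1 and 9.98 to 10.64 in B6, against 10.26 to 11.10 in C3Bir and 10.37 to 10.46 in BC-R3. Proliferation genes were called higher in CB-R1 in 16 of 19, with a median of 0.66, against 1 of 19 and 0.06 in C3Bir over BC-R3. The median of 13 stromal markers was 0.56, with 2 called higher, in CB-R1 over B6 and -0.64, with 0 called, in C3Bir over BC-R3. Whether the pairs differ in these lists was not tested, nor was the part of such cells in the counts. Of the 1123 genes called between C3Bir and BC-R3, 1082 differed in the same direction between CB-R1 and B6, or 96.3%, against 65.4% of all genes. Called in both, in the same direction, were 666 genes, which is 59.3% of the 1123 and 41.9% of the 1589. A single gene, Wdr91, was called in opposite directions, by 0.31 in C3Bir, a call lost without any array except C3Bir array 1, and by -0.31 in CB-R1. Of the 169 genes with a difference of at least 2-fold, 168 had the same sign and 148 were called in CB-R1 against B6. The exception in sign was Mgp, the matrix Gla protein, at -1.02 in C3Bir and 0.36 in CB-R1; its call was lost without any array other than BC-R3 array 3. Of the 24 largest differences 23 were also called in CB-R1 against B6, and Trim30d was not (-1.47, adjusted p = 0.108). Across the 1123 genes the pair of differences correlated with a Pearson r of 0.943, as a description, since genes on the same arrays are not independent.

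**Figure D2:**
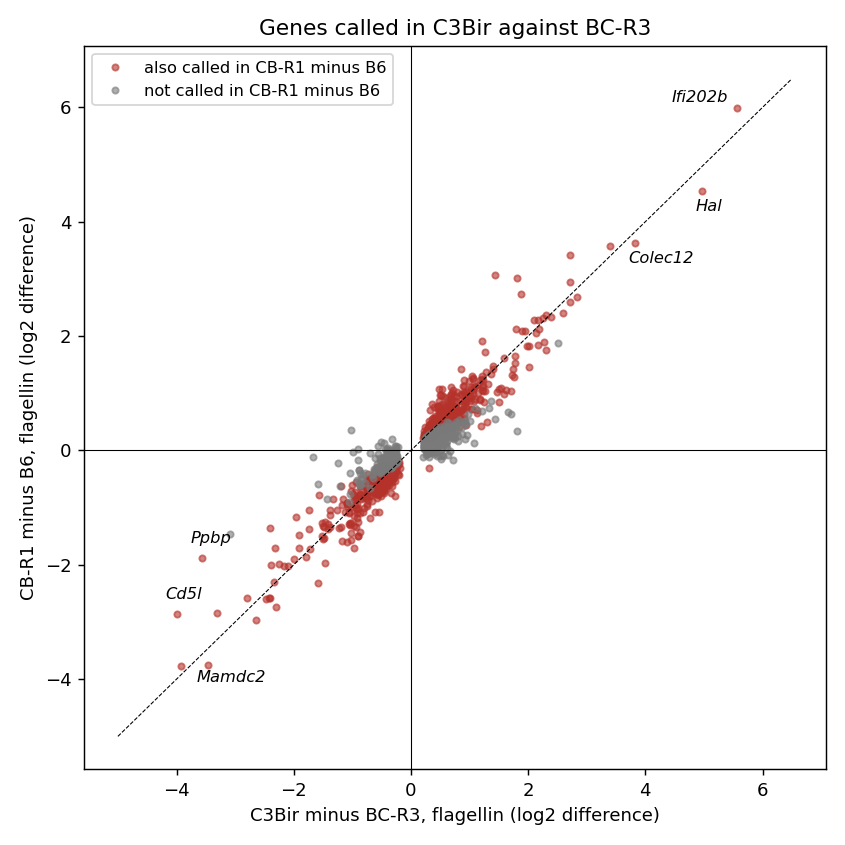
Log2 difference between C3Bir and BC-R3 (x axis) and between CB-R1 and B6 (y axis) on flagellin arrays, for the 1123 genes called in the first. Each point is a gene, red where it was also called in CB-R1 against B6, and the dashed line marks equal differences; the x axis is empty around 0 because only called genes are shown. Points run from Cd5l to Ifi202b around the line, with 41 genes of opposite sign close to 0 on the y axis. Some of the largest falls were smaller on the y axis, among them Ppbp (-3.56 and -1.87) and Trim30d (-3.09 and -1.47).

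Tested directly, the background difference was unequal between the forms of Cdcs1 in 3 genes (0.0165%), with 1206 at an unadjusted p under 0.05. For Ppbp it was -3.56 between C3Bir and BC-R3 and -1.87 between CB-R1 and B6; CB-R1 arrays had 7.30, 7.33 and 7.52, between the levels of C3Bir and of the B6 background. Cd5l had a similar order, with 9.84, 9.64 and 9.99 in CB-R1 and 12.46, 12.69 and 12.89 in B6, but its dependence on the form was not called. Pgap1, which acts on the lipid anchor of membrane proteins, differed by 0.11 between C3Bir and BC-R3 and by -1.23 between CB-R1 and B6. Adgrg3, an adhesion-type receptor known from neutrophils, differed by -0.26 between C3Bir and BC-R3 and by 0.81 between CB-R1 and B6, the pair in which 10 of the 12 neutrophil markers were called higher; the part of neutrophils in this result was not tested. The count of 3 became 0 without any 1 of C3Bir arrays 2 and 3, BC-R3 arrays 1 and 2, CB-R1 arrays 1 and 2 and B6 array 3. Without CB-R1 array 3 it was 1, and without C3Bir array 1 or B6 array 1 it was 8.

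On the arrays labelled unstimulated, from the same strains and possibly the same mice, 1452 genes (7.98%) were called between C3Bir and BC-R3. Of the 1123 genes 1062 had the same sign there, or 94.6%, against 62.1% of all genes, and 623 were called in both in the same direction. Mier1 was called in opposite directions, by 0.23 with flagellin, a call lost without any 1 of the 6 arrays, and by -0.22 without flagellin. The difference between the conditions was called in 0 genes (lowest adjusted p = 0.521), with 1580 at an unadjusted p under 0.05. It was called in 315 genes without BC-R3 unstimulated array 1 and in 23 without C3Bir unstimulated array 1, and in 0 without any of the other 10 arrays. BC-R3 unstimulated array 1 correlated at 0.9902 and 0.9882 with the other 2, which correlated at 0.9975 with each other. The count of 0 therefore does not show that the difference was the same in both conditions. All 24 of the largest differences were also called on the unstimulated arrays: Ifi202b averaged 11.44 in C3Bir and 5.88 in BC-R3 there, and Cd5l 8.40 in C3Bir and 12.54 in BC-R3.

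No inflammatory cytokine, NF-kB or interferon-stimulated gene of the lists was called between C3Bir and BC-R3. The error of each test was estimated over all 24 arrays, the unstimulated ones among them. Spread on arrays outside the comparison therefore entered these results. Calls for these lists from the flagellin arrays alone are not given here. Between CB-R1 and B6, 3 of the NF-kB genes were called lower and 4 of the interferon-stimulated genes higher, as given above. Between C3Bir and BC-R3, of 20 inflammatory cytokine genes 0 were called, with 2 higher and 2 lower at an unadjusted p under 0.05. Their median difference was -0.09, against 0.02 over all genes. Some cytokines gave little signal to compare. Il6 averaged 3.92 in C3Bir and 3.94 in BC-R3, below the lower quartile, and may be background signal. Il12b averaged 5.88 in C3Bir and 6.11 in BC-R3. Tnf, a main cytokine of activated macrophages, had 8.87, 9.36 and 9.38 on C3Bir arrays 1, 2 and 3, against 10.02, 9.80 and 10.95 on BC-R3 arrays 1, 2 and 3. The groups did not overlap, but the difference of -1.05 had an interval of -2.36 to 0.26 and was not called (adjusted p = 0.45). Il1b differed by -0.33, with an interval of -1.95 to 1.29, so differences of either sign and of more than 2-fold remained within the error. Of 19 genes of the NF-kB pathway and its feedback 0 were called and 0 had an unadjusted p under 0.05, while 18 had a value below 0 and the median was -0.31. The mean over the 19 was 9.79 to 9.95 on the C3Bir arrays and 10.12 to 10.47 on the BC-R3 arrays. Interferon-stimulated genes gave 0 calls of 29, with 1 lower at an unadjusted p under 0.05 and a median of 0.05; without C3Bir array 1 the median was -0.28 and the calls were again 0. For Cxcl10 and Ccl5, chemokines induced by interferon and by NF-kB, the differences were -1.52 and -1.50, with intervals of -3.27 to 0.22 and -3.06 to 0.05.

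Of 14 genes of flagellin sensing and the inflammasome 1 was called, a share near the 6.17% over all genes. Pycard, the adaptor that links inflammasome sensors to caspase-1, had 9.81, 9.52 and 9.43 in C3Bir, against 10.69, 10.57 and 10.50 in BC-R3. The groups were apart and the gene was 2.00-fold lower in C3Bir (adjusted p = 8.44e-06), and both of its other probe sets differed the same way. Tlr5 averaged 7.19 in C3Bir and 7.16 in BC-R3, a difference of 0.03 with an interval of -0.17 to 0.24. Naip5 differed by -0.16, with an interval of -0.53 to 0.21, and Tlr4 averaged 8.56 in C3Bir and 8.61 in BC-R3. Among 21 other pattern recognition receptors Clec7a, a receptor for fungal glucans, was 1.52-fold higher and Tlr1 was lower, shares near those over all genes.

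Of 25 chemokine genes 4 were lower and 1 was higher, where 2.69% of all genes were lower and 3.48% higher. These shares over all genes apply to each list below, and many of the lists are small. Ccl9, which attracts myeloid cells, had 12.22, 11.78 and 11.72 in C3Bir, against 13.29, 13.22 and 13.33 in BC-R3, and was 2.60-fold lower. Cxcl14, the 1 that rose, had 10.37, 10.87 and 10.93 in C3Bir, against 8.62, 8.92 and 8.33 in BC-R3, and was 4.28-fold higher. Ccl6 fell by 0.88, a call lost without C3Bir array 2 or 3 or BC-R3 array 3, and Ppbp and Pf4 complete the 5. Pf4, like Ppbp a chemokine of platelets, fell by 0.66, a call lost without C3Bir array 2 or 3 or BC-R3 array 1 or 3. Among 10 chemokine and chemoattractant receptors C5ar1, the receptor for complement fragment C5a, was 3.33-fold lower and Ccr1 1.61-fold higher. Cx3cr1, the fractalkine receptor, fell by 1.68 and Ccr3 by 0.41; the call of Cx3cr1 was lost without C3Bir array 2 or 3 or BC-R3 array 1 or 2, and that of Ccr3 without C3Bir array 3 or any BC-R3 array.

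Ppbp, Pf4 and Itga2b also mark megakaryocytes, and 3 of the 9 measured markers of erythroid cells and megakaryocytes were called, all of them lower. The mean over the 9 was 6.96 to 7.14 on the C3Bir arrays and 7.60 to 7.72 on the BC-R3 arrays. That gap rests mainly on the 3 called genes, since the median difference over the 9 was -0.07 and 6 were not called. Itga2b had 7.37, 7.39 and 7.43 in C3Bir, against 8.23, 8.57 and 8.22 in BC-R3. Gata1, which defines both lineages, stood below the lower quartile on every array, at 5.12 to 5.33 in C3Bir and 5.25 to 5.31 in BC-R3. The part of other cells in the chemokine differences was not tested, and in RNA from a whole culture fewer cells of a type and less RNA per cell cannot be told apart.

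All 3 subunits of C1q, the starter of the classical complement pathway and a product of macrophages, were lower in C3Bir. C1qb had 12.99, 12.22 and 12.27 on C3Bir arrays 1, 2 and 3, against 13.58, 13.55 and 13.64 on BC-R3 arrays 1, 2 and 3. C3Bir array 1 was the nearest to BC-R3, the groups did not overlap, and the gene was 2.14-fold lower (adjusted p = 0.0015). C1qa fell by 0.88 and C1qc by 0.65. Without C3Bir array 1 these falls were larger, at -1.17 and -0.83, but the call of C1qa was lost without any other array and that of C1qc without C3Bir array 2 or 3. In the whole list of 13 complement genes 4 were lower and 2 higher. The higher ones were Cd59a, an inhibitor of the membrane attack complex, and Itgax, a subunit of a complement receptor. Promoters of C1qb and C1qc are shown because these neighbouring genes moved together. RefSeq lists them on the minus strand of GRCm38.p6 (a B6 genome), from 250 bases before to 50 after the start, at chr4:136886151-136886450 for C1qb and chr4:136892865-136893164 for C1qc. Capitals mark GGAAGT, the core letters bound by the macrophage factor PU.1, here found as ACTTCC on the opposite strand, at -53 in C1qb and -195 in C1qc. The letters occur on either strand in 23.8% of the 32851 promoters in the same table, and a match is a description of the sequence only.
C1qb: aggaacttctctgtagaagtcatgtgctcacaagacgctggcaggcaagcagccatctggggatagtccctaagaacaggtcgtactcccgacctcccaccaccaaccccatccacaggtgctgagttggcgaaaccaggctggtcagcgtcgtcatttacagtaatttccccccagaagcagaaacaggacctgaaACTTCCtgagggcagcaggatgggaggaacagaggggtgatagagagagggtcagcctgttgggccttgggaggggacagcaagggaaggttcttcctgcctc
C1qc: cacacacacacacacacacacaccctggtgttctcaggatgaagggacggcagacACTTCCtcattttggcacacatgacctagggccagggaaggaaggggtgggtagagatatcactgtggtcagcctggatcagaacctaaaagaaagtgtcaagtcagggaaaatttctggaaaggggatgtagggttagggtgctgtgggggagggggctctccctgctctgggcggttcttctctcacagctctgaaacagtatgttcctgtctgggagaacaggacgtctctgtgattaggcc

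Antigen presentation genes gave calls in both directions. H2-Eb1, a beta chain of MHC class II, had 10.53, 9.82 and 9.51 in C3Bir, against 10.90, 10.92 and 11.14 in BC-R3. H2-Ab1, the other called beta chain, had 10.68, 9.67 and 9.67 in C3Bir, against 10.92, 10.85 and 11.12 in BC-R3. C3Bir array 1 lay close to BC-R3 in both. H2-Eb1 fell by 1.03 and H2-Ab1 by 0.95 (adjusted p = 0.0123 and 0.0284), by -1.32 and -1.29 without that array. The call of H2-Eb1 was lost without C3Bir array 2 or 3 or BC-R3 array 3, and that of H2-Ab1 without any array but C3Bir array 1. Over the 11 class II genes 2 were lower and 1 higher, with a median of -0.03, and without C3Bir array 1 there were 3 lower and 0 higher. The higher one, H2-Ob, lay below the lower quartile in both strains, and its call was lost without C3Bir array 1 or 2 or BC-R3 array 2 or 3. Of 14 class I and peptide loading genes 3 were called: H2-D1, with no direction given, H2-M3, lower at -0.34, and H2-T24, higher at 1.81, a call lost without C3Bir array 1 or 3 or BC-R3 array 2. Other H2 genes also had probe sets that disagreed in size. H2-K1 was at -0.19 by its representing probe set and not called, while its others were at -2.01, -3.47 and -0.28. H2-Ea was at 0.22 and not called, while its others were at 1.07 and 0.21. The part of sequence differences under the probes was not tested for any gene of this paragraph.

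Antioxidant genes split by gene. Cat, catalase, which removes hydrogen peroxide, had 10.55, 10.41 and 10.48 on C3Bir arrays 1, 2 and 3, against 11.62, 11.45 and 11.66 on BC-R3 arrays 1, 2 and 3. The strains were far apart for the spread of their arrays, a 2.13-fold lower level in C3Bir (adjusted p = 5.1e-07). Gclm, the regulatory subunit of the enzyme that starts glutathione synthesis, had 11.47, 11.46 and 11.66 in C3Bir, against 12.69, 12.47 and 12.96 in BC-R3, and was 2.27-fold lower. Hmox1, the haem-degrading enzyme, had 11.34, 11.51 and 11.67 in C3Bir, against 12.70, 12.62 and 12.89 in BC-R3, and was 2.35-fold lower. These 3 genes are known targets of the factor NRF2, and all 3 were also lower in CB-R1 than in B6, by -1.60 for Cat, -1.58 for Gclm and -1.35 for Hmox1. Gclc, the catalytic subunit that pairs with Gclm, was not called, at 0.17 with an interval of -0.26 to 0.59, and was at -0.54 in CB-R1 over B6, also not called (adjusted p = 0.114). Nqo1, another NRF2 target, was not called, at -0.17 with an interval of -0.48 to 0.14, and was lower in CB-R1 than in B6, by -0.67 (adjusted p = 0.00646). Glo1, which detoxifies methylglyoxal, had 10.72, 10.73 and 10.84 in C3Bir, against 9.71, 9.77 and 9.61 in BC-R3, and was 2.09-fold higher, with all 3 other probe sets differing the same way. Nnt, known to be partly deleted in C57BL/6J, was 1.32-fold higher, a call lost without any array but BC-R3 array 1; whether its probes lie in the deleted part was not examined. The list of 16 antioxidant genes thus had 3 lower and 2 higher, with a median of -0.16; in CB-R1 against B6 it had 6 lower and 2 higher, with a median of -0.60. The promoter of Gclm (chr3:122245307-122245606, plus strand, RefSeq, GRCm38.p6) is shown with the letters of the antioxidant response element, TGACNNNGC, in capitals, found on the opposite strand at -134. These letters occur on either strand in 12.4% of the 32851 promoters, and the promoter of Cat in the same table held 0 matches.
Gclm: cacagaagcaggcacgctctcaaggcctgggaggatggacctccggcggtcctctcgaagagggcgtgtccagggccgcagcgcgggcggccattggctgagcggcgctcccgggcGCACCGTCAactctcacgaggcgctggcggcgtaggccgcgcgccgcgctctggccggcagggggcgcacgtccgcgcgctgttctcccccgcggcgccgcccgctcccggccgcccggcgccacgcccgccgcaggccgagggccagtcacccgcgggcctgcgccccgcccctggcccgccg

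Lipid handling genes were lower in 4 of 19 sterol, lipogenic and LXR genes and higher in 1. Apoe, which carries lipids out of macrophages, had 13.64, 13.40 and 13.39 in C3Bir, against 14.15, 14.29 and 14.26 in BC-R3, and was 1.69-fold lower. Srebf1, a transcription factor of fatty acid synthesis, had 8.83, 8.84 and 8.84 in C3Bir, against 9.48, 9.54 and 9.35 in BC-R3, and was 1.54-fold lower. Lpl, lipoprotein lipase, fell by 0.41. Mylip, which degrades the LDL receptor, fell by 0.56, a call lost without C3Bir array 2 or 3 or BC-R3 array 1 or 3. Abcg1, a cholesterol exporter and a target of LXR like Apoe, Srebf1 and Mylip, was the 1 that rose, by 0.36. The median of the list was -0.20, against 0.02 over all genes. Of 18 genes of glycolysis and hypoxia 3 were lower and 0 higher, each by less than 1.3-fold. Aldoa, a glycolytic aldolase, at -0.33, was called with any 1 array left out. The call of Car9 was lost without C3Bir array 2 or 3 or BC-R3 array 2, and that of Pkm without C3Bir array 1 or BC-R3 array 2 or 3. Without C3Bir array 1 the list had 1 higher, Hk3, a hexokinase, and 2 lower.

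Of 24 lysosome and cathepsin genes 4 were higher and 0 lower, with 1 lower at an unadjusted p under 0.05. Ctsk, the collagen-cutting cathepsin of osteoclasts, had 8.81, 9.35 and 9.40 in C3Bir, against 7.90, 7.91 and 7.87 in BC-R3, and was 2.46-fold higher. Ctsl, another cathepsin, was 1.47-fold higher by a probe set averaging 13.91 in C3Bir and 13.35 in BC-R3, while its second, dimmer probe set was lower, by -0.97. Atp6v0d2, a proton pump subunit, rose by 0.64, a call lost without C3Bir array 2 or 3 or BC-R3 array 3, and Ctsa by 0.28, a call lost without C3Bir array 3 or BC-R3 array 3. Ctsk and Atp6v0d2 also mark osteoclasts, and 2 of 10 osteoclast markers were called, both higher; at an unadjusted p under 0.05 the 10 had 3 higher and 1 lower. The lower one, Dcstamp, a fusion protein of osteoclasts, had 7.06, 7.47 and 7.34 in C3Bir, against 7.97, 7.86 and 7.41 in BC-R3, a difference of -0.46 that was not called (adjusted p = 0.0977). The mean over the 10 was 8.0 to 8.31 in C3Bir and 7.78 to 8.0 in BC-R3, with a median difference of 0.08. Acp5, a defining enzyme of osteoclasts, had 9.95, 10.43 and 10.48 in C3Bir, against 9.16, 9.33 and 9.48 in BC-R3. These groups did not overlap, but the difference of 0.96 was not called (adjusted p = 0.147). On the unstimulated arrays the Acp5 difference was 1.92 and was called (adjusted p = 0.00163). Calcr stood below the lower quartile on every array. The part of such cells in the result was not tested.

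**Figure D3:**
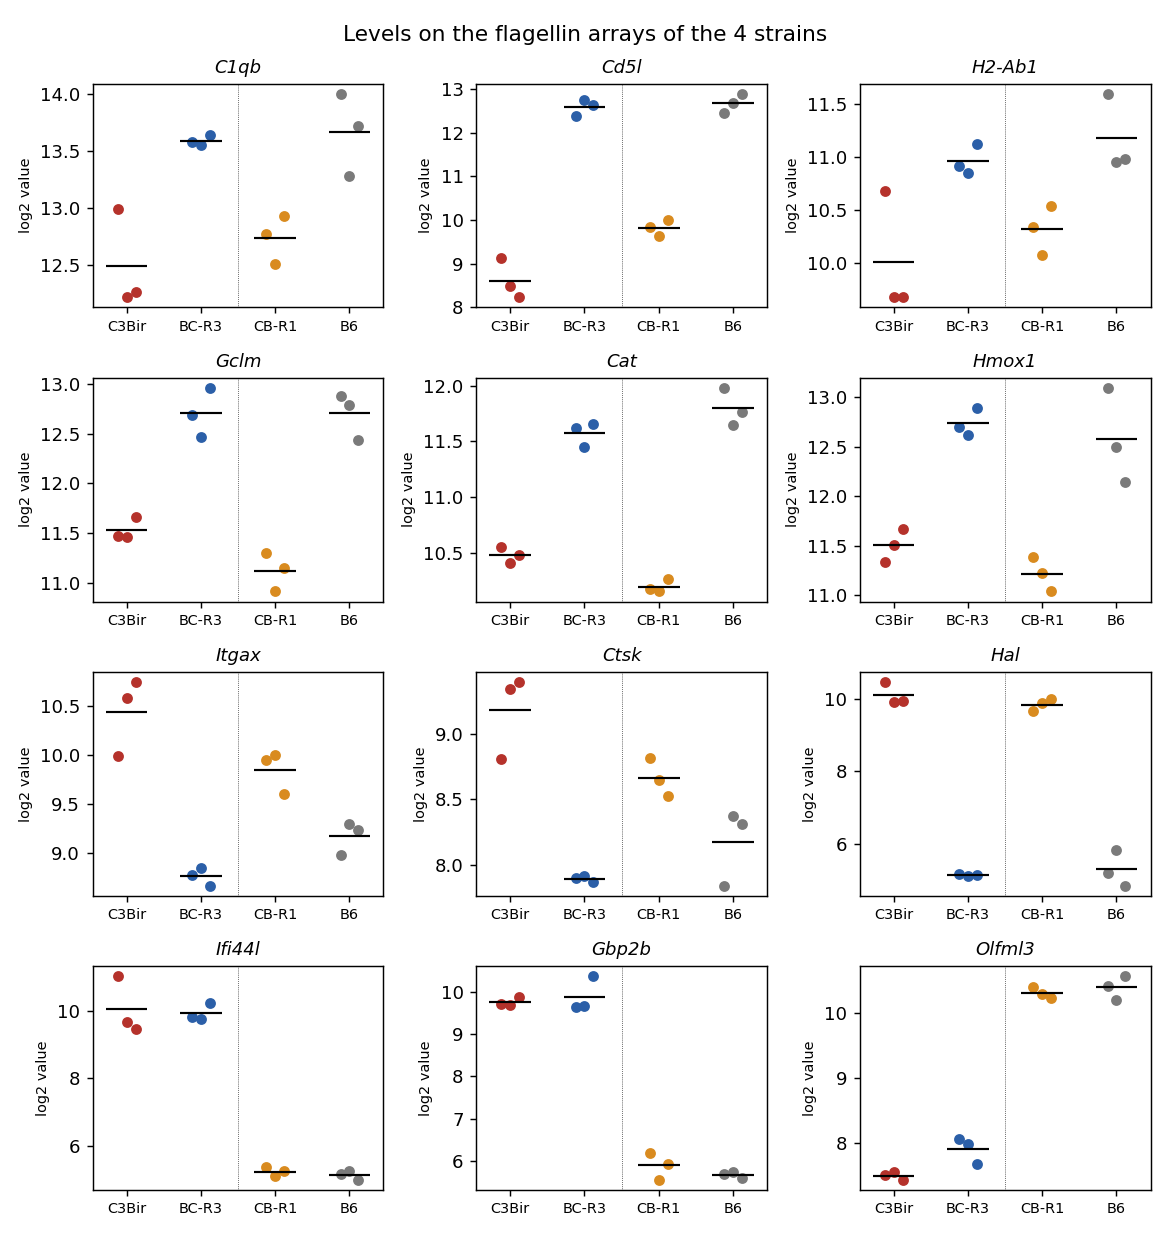
Log2 values of 12 genes on the flagellin arrays of the 4 strains, in panels with separate y axes that do not start at 0. Each point is an array and each line the mean of 3; the dotted line separates the strains with the C3Bir form of Cdcs1 (left) from those with the B6 form (right). The first 9 genes differ between C3Bir and BC-R3, with the same sign in the other pair, while Ifi44l, Gbp2b and Olfml3 lie further apart between the forms than between strains of a form.

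Itgax, the integrin that marks dendritic cells and some macrophages, had 9.99, 10.58 and 10.74 on C3Bir arrays 1, 2 and 3, against 8.78, 8.85 and 8.67 on BC-R3 arrays 1, 2 and 3. It was 3.17-fold higher (adjusted p = 4.5e-05). Irf4, a transcription factor of dendritic cells and of alternatively activated macrophages, was 1.88-fold higher. These were 2 of 11 dendritic cell markers, with 0 lower, and the mean over the 11 was 7.23 to 7.28 in C3Bir and 6.97 to 7.01 in BC-R3. That gap rests mainly on the 2 called genes, since the median difference over the 11 was 0.07. Flt3 and Zbtb46, which define classical dendritic cells, were not called. Flt3 had 7.15 to 7.26 in C3Bir and 7.01 to 7.16 in BC-R3, and Zbtb46 had 6.92 to 7.24 in C3Bir and 6.86 to 7.20 in BC-R3. Their part in the difference was not tested. The 13 stromal markers had 0 calls and 1 lower at an unadjusted p under 0.05, with a median of -0.64 and array means of 7.59 to 8.14 in C3Bir and 7.75 to 8.74 in BC-R3. Within BC-R3, Col1a1, a collagen of fibroblasts, had 10.37 and 10.25 on arrays 1 and 2 and 8.61 on array 3. Neutrophil markers had 0 calls of 12, with 1 higher at an unadjusted p under 0.05. Their median of 0.13 became -0.09 without C3Bir array 1.

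Enzymes of nitric oxide and amino acid use were higher in 3 of 18, with 0 lower at either threshold. Besides Hal these were Ncf4, a subunit of the NADPH oxidase, at 1.46-fold, and Slc7a2, an arginine transporter. Slc7a2 had 8.56, 9.97 and 9.70 in C3Bir, against 6.91, 6.97 and 6.83 in BC-R3, and its call was lost without C3Bir array 2 or 3. Nos2, the inducible nitric oxide synthase, differed by 0.06 with an interval of -0.52 to 0.65. Among 14 scavenger receptors and Cd5l, Colec12 and Msr1, which takes up modified lipoprotein, were higher and Cd5l was lower. Dio2, which activates thyroid hormone, was 4.83-fold higher. Mcm6, of the replicative helicase, was 2.33-fold higher and the single call among 19 proliferation genes, a share near that over all genes. In that list CB-R1 against B6 had 16 calls.

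**Figure D4:**
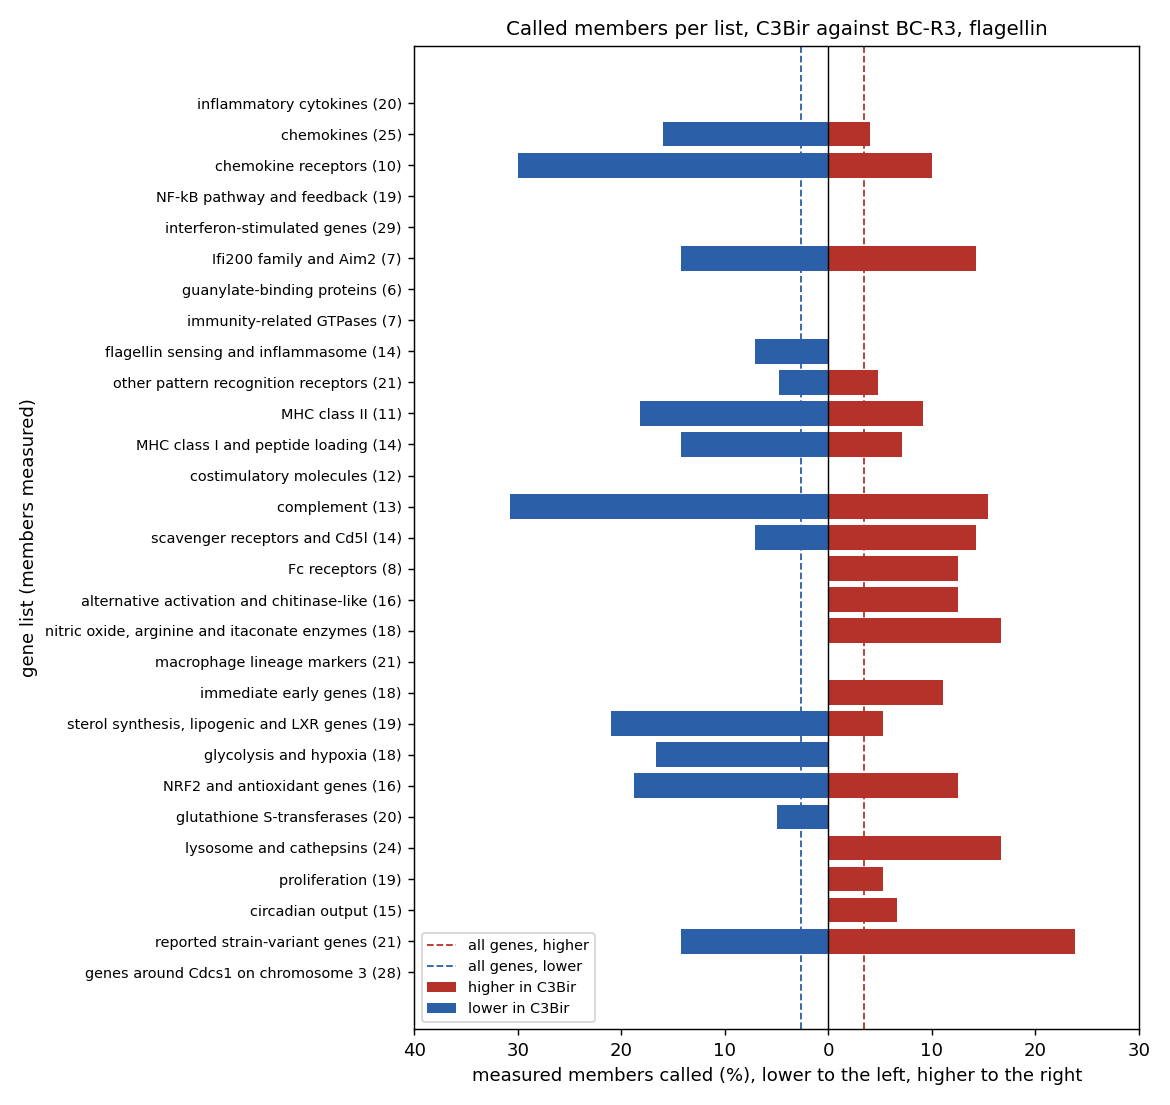
Share of measured members called higher (bars to the right) or lower (bars to the left) in C3Bir against BC-R3 for 29 gene lists, with the number measured in parentheses. Dashed lines mark the share over all genes, 3.48% higher and 2.69% lower; cytokine, NF-kB, interferon and Cdcs1-region lists have no bar, and a bar can stand for as few as 1 gene.

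Several of the largest differences lay in runs of related neighbouring genes, picked here after their values were seen. In the Trim genes on chromosome 7, of which several act against viruses, 4 of 7 were lower and 0 higher. Trim34a averaged 7.52 in C3Bir and 9.51 in BC-R3, and Trim12a averaged 4.44 in C3Bir and 7.23 in BC-R3. Trim30a, at -0.70, and Trim12c, at 0.19, were not called. In the Cd300 receptors on chromosome 11, Cd300c2 and Cd300ld were lower, by -2.40 and -1.78, Cd300lf was higher, by 1.88, and Cd300a and Cd300lb were not called. In the Ifi200 genes on chromosome 1, Ifi202b was higher and Ifi213 lower, by -2.39, out of 8. In a run of 9 genes on chromosome 4, mostly zinc finger genes, Zfp979 and Zfp982 were higher and Znf41-ps and Gm13238 lower. Members of such families are near-identical in places, so their probe sets may also bind one another's RNA, which was not tested. On the Y chromosome 3 of 9 genes were called, all higher in C3Bir: Kdm5d, a histone demethylase, by 1.06, Eif2s3y, a translation factor, by 0.92 and Uty by 0.67.

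Chromosome 3 carries Cdcs1, and 41 of its 913 measured genes were called (4.49%), against 6.17% of all genes. Split in order along the chromosome into 5 runs of about equal size, 14, 10, 9, 5 and 3 genes were called, or 7.65% of the first run and 1.65% of the last. Between CB-R1 and B6 the counts in the same runs were 14, 19, 17, 11 and 11. Of 28 genes around Cdcs1 0 were called, where 2 were higher and 2 lower by an unadjusted p under 0.05 (the lowest after adjustment was 0.0518). A trio of chromosome 3 genes lay further apart between the forms of Cdcs1 than between C3Bir and BC-R3. Ifi44l, an interferon-induced gene, had 11.04, 9.68 and 9.46 in C3Bir and 9.84, 9.78 and 10.25 in BC-R3, against 5.36, 5.09 and 5.24 in CB-R1 and 5.15, 5.26 and 4.99 in B6. Gbp2b, an interferon-induced GTPase, had 9.72, 9.68 and 9.88 in C3Bir and 9.63, 9.66 and 10.37 in BC-R3, against 5.56 to 6.20 in CB-R1 and 5.61 to 5.74 in B6. Olfml3, a secreted matrix protein, ran the other way, with 7.44 to 7.56 in C3Bir and 7.68 to 8.07 in BC-R3, against 10.22 to 10.40 in CB-R1 and 10.20 to 10.56 in B6. Between C3Bir and BC-R3 the difference was 0.10 for Ifi44l, with an interval of -0.60 to 0.80, -0.12 for Gbp2b, with an interval of -1.30 to 1.06, and -0.41 for Olfml3, with an interval of -0.81 to -0.01 (adjusted p = 0.293). None of the 3 was called, though the Olfml3 arrays of C3Bir and BC-R3 did not overlap. Cd5l and Gclm, also on chromosome 3, differed between C3Bir and BC-R3 as described above.

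**Figure D5:**
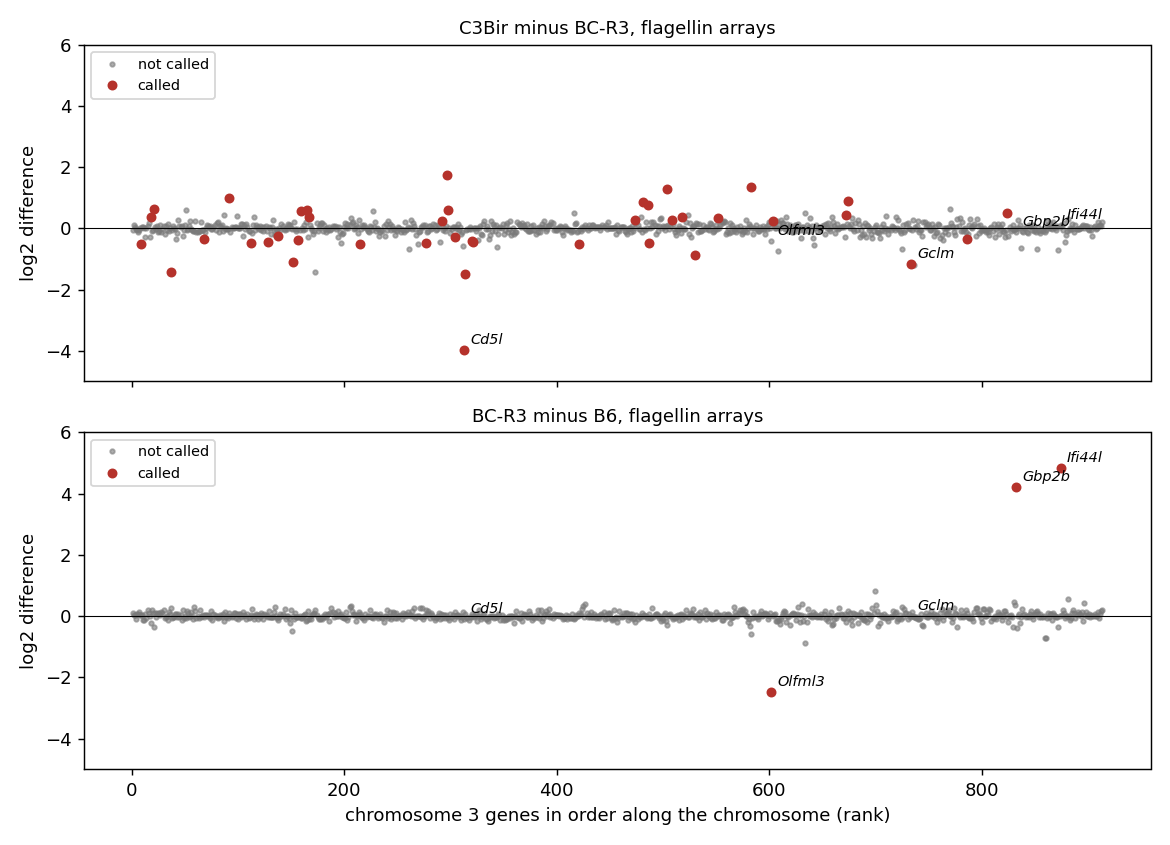
Log2 difference of chromosome 3 genes (y axis) against their order along the chromosome (x axis), for C3Bir minus BC-R3 (top) and BC-R3 minus B6 (bottom) on flagellin arrays, with called genes in red. The 2 panels share the BC-R3 arrays; Cd5l and Gclm are away from 0 in the top panel, and Olfml3, Gbp2b and Ifi44l in the bottom panel.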

How the data were processed

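Bone marrow-derived macrophage RNA was measured on 24 Affymetrix arrays in 8 groups of 3, grouped by title. The values are log2 signals per probe set, in 1 table deposited by the authors; summarisation and normalization are not given in the sources used here. The deposited log2 values were used unchanged, since array medians agreed and no 2 arrays were identical. Of 45037 probe sets 4 had no values, 34944 had 1 gene symbol in the platform table and were used, 931 had more than 1 symbol and 9158 lacked one. Each of 18193 genes was represented by its brightest probe set on average, of which 9010 had more than 1. Chromosome and gene order came from a RefSeq table (GRCm38.p6; 18032 genes matched), and promoters from RefSeq.

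Group means were estimated for the 8 groups in 1 fit of all 24 arrays with limma 3.58.1 (R 4.3.3; 16 residual and 3.99 prior degrees of freedom). Tests were two-sided, adjusted by Benjamini-Hochberg over all genes, and called at an adjusted p under 0.05; intervals are 95% and unadjusted. Simulated data had the same genes and arrays, with independent normal values and 1 mean and 1 spread per gene over all groups. On them the fit recovered 94% of changes of 1 log2 unit and 100% of those of 2, with 4 false calls among 18193 genes. Smaller changes, outlying arrays, other strain differences and correlation between genes were not simulated.

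Named genes were the 12 largest rises and falls called under every omission of 1 array with arrays apart, the 5 largest per direction in differences of differences, up to 3 called members per list and a fixed set; 3 of that set were not analysed here. Others, among them further list members and neighbours, were chosen after their values were seen. Of 621 genes in 39 lists 542 were measured. Members and lists were chosen with earlier results of these data known. Alternatives covered normalization, filter, probe-set choice, eBayes options, arrays in the fit, replicate blocks, a 2-fold threshold and each array left out.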

Additional observations from a re-analysis of the deposited data

Results flagged for a closer look

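In 3 genes the difference between the backgrounds was unequal between the forms of Cdcs1, by a direct test of the difference of differences on the flagellin arrays. In a fit of the flagellin arrays alone the count was 0. The form of Cdcs1 and other differences between the strains or their cultures cannot be told apart in this test. For Ppbp the difference between C3Bir and BC-R3 exceeded that between CB-R1 and B6 by -1.68 (log2). For Pgap1 it was 1.34, with 7.17, 7.45 and 7.45 in C3Bir and 7.21, 6.93 and 7.60 in BC-R3, against 6.75, 6.37 and 6.66 in CB-R1 and 7.84, 7.94 and 7.70 in B6. For Adgrg3 it was -1.07, with 6.79 to 7.01 in C3Bir and 7.01 to 7.28 in BC-R3, against 7.37 to 7.79 in CB-R1 and 6.64 to 6.95 in B6. In Pgap1 and Adgrg3 the CB-R1 arrays lay outside the range of the other 3 strains. Adgrg3 is known from neutrophils, and of 12 neutrophil markers 10 were called higher in CB-R1 than in B6 and 0 in C3Bir against BC-R3; their part was not tested.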

How the results depend on the processing

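The count of 1123 genes between C3Bir and BC-R3 ran from 1034 to 1347 under quantile normalization, median centring, a low-value filter, the mean of probe sets, other eBayes options, other choices of arrays and both blocks. It was 1858 over all probe sets, 35 against a 2-fold threshold, and 725 to 1077 with 1 array left out. The 3 genes whose difference depended on the form of Cdcs1 became 0 in fits of the compared or the flagellin arrays alone (1422 at an unadjusted p under 0.05) and against the 2-fold threshold, and 0 to 8 with 1 array left out. The count by condition was 0 to 315 with 1 array left out and 0 otherwise. The CB-R1 against B6 count of 1589 was 2763 over all probe sets, 40 against the 2-fold threshold and 991 to 1849 with 1 array left out; 991 was without CB-R1 array 2. Deviations from the group means correlated at -0.066, 0.221 and -0.058 between C3Bir and BC-R3 arrays of equal replicate number. For unequal numbers the correlations were -0.186 to 0.18. With 3 arrays per group these values cannot settle whether the samples were paired. With the replicate block the counts were 1133 (C3Bir against BC-R3), 5 (by form), 0 (by condition) and 1652 (CB-R1 against B6). With the mean of probe sets Ctsl was at -0.21 and Pdxdc1 at -0.14, below 0, since their probe sets disagreed. Over 161 named genes and 2724 alternative values, 2510 kept direction and call, 194 kept direction and lost the call (93 with an array left out, 70 against the 2-fold threshold), 18 gained one and 2 turned. The cause of the other changes was not tested. With no detection calls, differences near or below the lower quartile may be background signal.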

Other observations

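Some gene groups not described above gave few calls. Of 12 costimulatory molecules 0 were called, with 1 higher at an unadjusted p under 0.05 and a median of 0.08, and of 6 guanylate-binding proteins and 7 immunity-related GTPases 0 were called or reached that unadjusted threshold. Among 18 immediate early genes Egr2, a transcription factor, had 9.11, 9.48 and 9.65 in C3Bir, against 8.65, 8.49 and 8.69 in BC-R3, and was 1.74-fold higher, and Jund, of the AP-1 family, was 1.47-fold higher; between CB-R1 and B6 neither was called. Bhlhe41, a repressor in the circadian clock, was 1.73-fold higher, with its other probe set lower by -0.36. Fabp4, a fatty acid carrier of macrophages and adipocytes, had 11.17, 11.33 and 11.37 in C3Bir, against 10.56, 10.54 and 10.88 in BC-R3, and was 1.55-fold higher; its difference was -0.08 between CB-R1 and B6.

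Of 21 genes reported to differ in sequence between C3H and B6 strains 5 were higher and 3 lower, against 3.48% and 2.69% of all genes. The list was chosen with earlier results of these data known and holds Ifi202b and Cd5l. Its shares are therefore a description and no test of such genes. Alad, of haem synthesis, had 8.47, 8.76 and 8.66 in C3Bir, against 7.68, 7.60 and 7.55 in BC-R3, and was 2.03-fold higher. Slc11a1, a metal transporter of phagosomes known for a loss-of-function variant in C57BL/6, was 1.24-fold lower, a call lost without C3Bir array 1 or 2 or any BC-R3 array.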
